A study of Mus musculus with 4 samples.

Results

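The genes described here are Slc7a8, Glul, Got1, Got2, Odc1, Srm and Sat1, which serve amino acid transport, glutamine and aspartate metabolism and polyamine metabolism. They are 7 of the 8251 genes that the arrays named, and they were chosen by name, with every probe set annotated to a listed gene alone, which gave 9 probe sets. A probe set is the group of short probes that reports a transcript. Transcripts of the mouse gastrocnemius, a mostly fast-fibred calf muscle, had been measured on 4 MG-U74Av2 arrays, 1 for each of 4 groups. The groups were intact mice, mice adrenalectomized 1 week before, and adrenalectomized mice that had received 0.1 mg cortisol by intraperitoneal injection 3 h or 24 h before their muscle was taken. Each array carried muscle pooled from 10 mice, so the spread between mice was not measured. The labels gave no strain, sex or age, no vehicle injection and no interval after surgery for the injected mice. The comparisons asked what loss of the adrenal glands and a later pulse of a glucocorticoid, the hormone class to which cortisol belongs, did to muscle transcripts.

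Skeletal muscle is the main store of amino acids in the body and exports nitrogen to other organs largely as glutamine and alanine. Glucocorticoids are known to raise protein breakdown and glutamine release in muscle, and glutamine synthetase, the product of Glul, is a known target of these hormones in rat muscle. Slc7a8 encodes LAT2, a light chain that pairs with the heavy chain encoded by Slc3a2 and exchanges neutral amino acids, glutamine among them, across the cell membrane. Got1 and Got2 encode the cytosolic and mitochondrial aspartate aminotransferases, which exchange amino groups between aspartate and glutamate and form part of the malate-aspartate shuttle. Polyamines are small cations that growing cells need. Ornithine decarboxylase (Odc1) makes the precursor putrescine, spermidine synthase (Srm) lengthens it, and spermidine/spermine acetyltransferase (Sat1) marks polyamines for export or back-conversion.

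Promoter windows from RefSeq (GRCm38.p6, 250 bases before to 50 after an annotated transcript start) were on hand for 6 of the 7 genes, all but Srm. For Odc1 that start lies downstream of the outermost start of the gene. They are shown for Slc7a8, the gene with the largest ratio among these genes, and for Sat1, the one window with the motif searched for, in which capitals mark the motif. The motif was AGAACA, which matches one arm of the binding palindrome of the glucocorticoid receptor, on either strand (TGTTCT on the other). The E-box CACGTG, bound by Myc and clock factors, was searched for as well.
Slc7a8, chr14:54781837-54782136, minus strand: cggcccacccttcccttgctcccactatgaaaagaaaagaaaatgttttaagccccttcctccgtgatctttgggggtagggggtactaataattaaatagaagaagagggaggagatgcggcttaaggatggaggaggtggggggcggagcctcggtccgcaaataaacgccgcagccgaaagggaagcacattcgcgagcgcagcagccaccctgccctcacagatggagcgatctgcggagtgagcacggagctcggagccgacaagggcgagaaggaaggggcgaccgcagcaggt
Sat1, chrX:155216400-155216699, minus strand: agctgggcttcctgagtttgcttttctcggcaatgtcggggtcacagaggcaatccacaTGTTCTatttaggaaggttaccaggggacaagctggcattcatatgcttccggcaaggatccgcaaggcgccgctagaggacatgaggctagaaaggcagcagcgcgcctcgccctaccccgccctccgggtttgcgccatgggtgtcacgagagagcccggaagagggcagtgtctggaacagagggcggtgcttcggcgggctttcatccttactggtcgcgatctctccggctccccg
The Slc7a8 window held 0 copies of either motif. The Sat1 window held 1 copy of TGTTCT, whose leftmost base lies 191 bases before the start, and 0 E-boxes. The windows of Glul, Got1, Got2 and Odc1 held neither. Of the 32851 windows in the table, 19.0% held AGAACA or TGTTCT and 7.15% held CACGTG. The G and C content was 58.0% for Slc7a8, 60.3% for Sat1 and 78.0% for Odc1, against a median of 52.7% over all windows. These are descriptions of letters in a short window and were not tied to any binding measurement.

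The values were probe set signals on a linear scale, scaled so that each array had a trimmed mean of 500. A signal below 100 was taken as not reliably measured and set to this floor. Genes of fast fibres marked the tissue, and all 13 on the list reached the floor on each array. With 1 array per group there was no replicate and no test, and the number of arrays limited the precision. The arrays shared 1 chip lot and hybridization time but each ran in its own fluidics module (4 in all), so effects of module, pool and treatment cannot be told apart. The only error measure came from genes with 2 probe sets. It put the SD of a log2 ratio at 0.24 where the adrenalectomized array was set against the intact one, at 0.28 where 3 h and at 0.32 where 24 h was set against the adrenalectomized one. It holds no variation between mice. The last 2 of these comparisons share the adrenalectomized array.

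**Figure D1:**
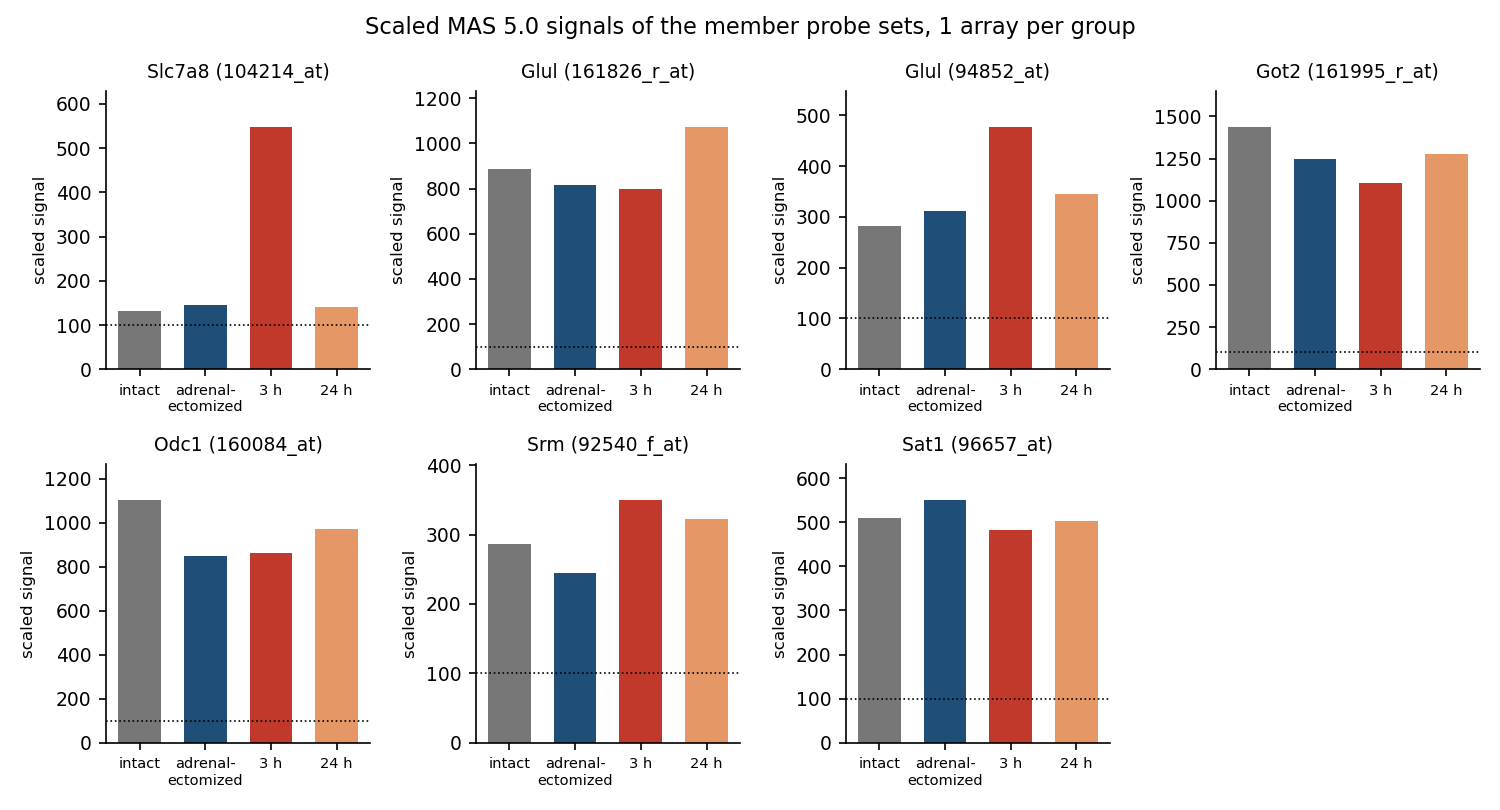
Scaled MAS 5.0 signals (vertical axis, starting at 0, with its own range in each panel) of the 7 member probe sets above the floor, with 1 bar per array and the floor of 100 as a dotted line. Slc7a8 reads 548 at 3 h and at most 144 on the other arrays, and the 2 probe sets of Glul are highest on different arrays.

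Of the 7 genes, 6 reached the floor on all 4 arrays and Got1 on none. After adrenalectomy 0 of the 6 differed from intact mice by 1.5-fold or more, where 4.91% of the 6112 genes compared did. At 3 h against adrenalectomized the count was 1 of 6 (Slc7a8, which also passed 2-fold), where 9.82% of 6168 genes passed 1.5-fold and 3.03% passed 2-fold. At 24 h against adrenalectomized it was 0 of 6, where 10.0% of 6228 genes passed. Counts over 6 genes this close to the background are no result about the genes as a group. The median log2 ratio of the 6 genes was -0.16, 0.00 and 0.11 in the 3 comparisons, and that of all genes was 0.01, -0.02 and 0.01. With equal medians of the ribosomal protein probe sets in place of the trimmed mean (ribosomal scaling), the median of all genes moved to -0.24 at 3 h and to 0.11 at 24 h against adrenalectomized. The split of all genes past 1.5-fold then went from 313 higher and 293 lower to 177 and 709 at 3 h, and from 342 and 281 to 525 and 204 at 24 h. Scaling to equal medians changed the split for adrenalectomized against intact from 163 higher and 137 lower to 117 and 188.

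Slc7a8 was the one transporter among these genes, and its transcript was several-fold higher 3 h after cortisol and at 24 h was close to its level without the injection. Its signal was 132 in intact mice, 144 after adrenalectomy, 548 at 3 h and 141 at 24 h. The 3 h array alone stood apart, and the other arrays lay close together, not far above the floor. The 3 h signal was 3.80-fold that of the adrenalectomized array, a log2 ratio of 1.93, against the SD of 0.28 from paired probe sets. Among the 6168 genes compared 28 had a larger ratio. Genes of like brightness varied more than bright ones, and 4.10% of the 2709 genes within 2-fold of the mean signal of Slc7a8 passed 2-fold. That mean includes the 3 h signal and so lies above the signals of Slc7a8 on the other arrays. From 3 h to 24 h the signal was 3.88-fold lower, a log2 ratio of -1.96, and 20 of 6229 genes had a smaller ratio. In that comparison 1 of the 6 genes passed 1.5-fold, where 11.6% of all genes did. Adrenalectomy itself moved Slc7a8 by a log2 ratio of 0.13. The 24 h signal differed from that of adrenalectomized mice by -0.03, a sign that turned positive under ribosomal scaling, and from that of intact mice by 0.10. Slc7a8 had 1 probe set, so no other probes on the arrays checked it.

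**Figure D2:**
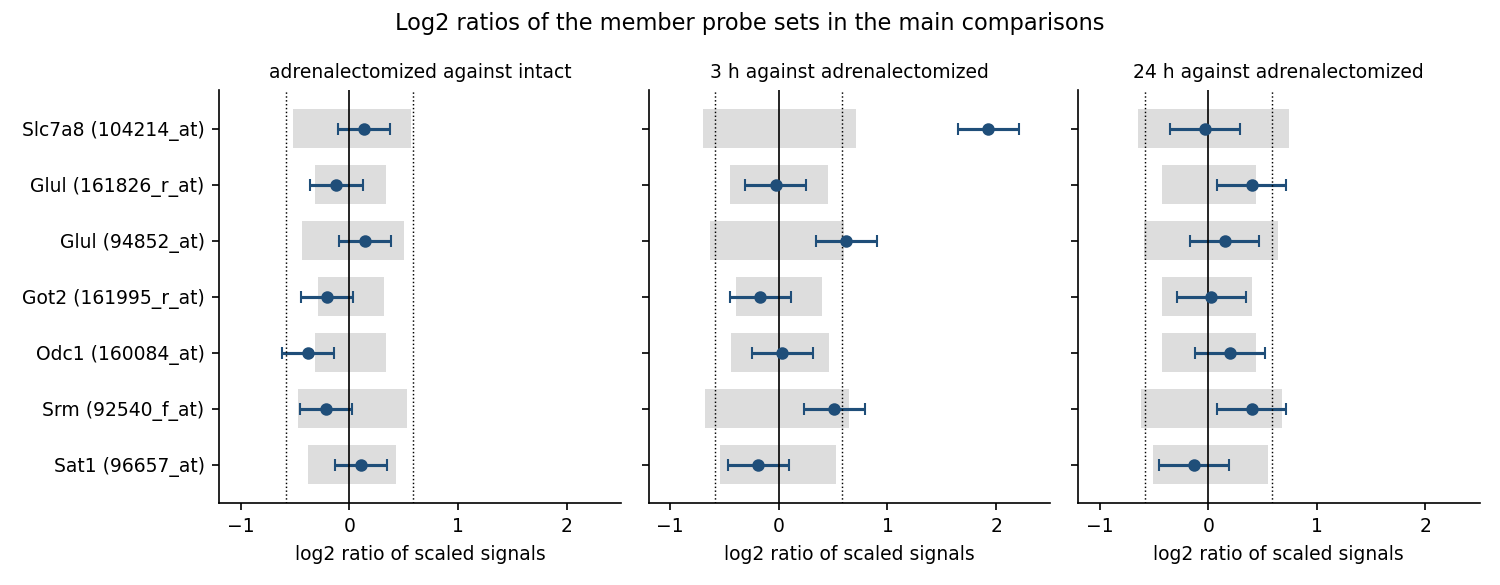
Log2 ratios of scaled signals (horizontal axis) of the member probe sets in 3 comparisons; points are single ratios, bars are 1 SD of a log2 ratio estimated from paired probe sets, grey bands run from the 5th to the 95th percentile of genes of like brightness, and dotted lines mark 1.5-fold. Slc7a8 at 3 h, with 1.93, lies far outside its grey band of -0.70 to 0.71, and the Glul set 94852_at lies just past the upper end of its band at 3 h.

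Genes whose signals over the 4 arrays ran most like those of Slc7a8 were sought among the other 5451 genes at or above the floor on all arrays. The measure was the largest difference between mean-centred log2 signals on any array. Ackr3, which encodes a scavenging receptor for the chemokine CXCL12, was nearest, with a largest difference of 0.10. Its signals were 335 in intact mice, 371 after adrenalectomy, 1296 at 3 h and 320 at 24 h. Slc10a6, which encodes a transporter of sulphated steroids, followed with a largest difference of 0.21 and was 2.86-fold higher at 3 h than after adrenalectomy. Frat2, a gene of Wnt signalling, came next at 0.26 and was 3.25-fold higher at 3 h, with a probe set whose suffix marks an incomplete set of probes. The likeness is over 4 arrays and rests mainly on the 3 h array.

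Most genes on a list of glucocorticoid reference genes, and most on a list of skin genes, stood high on the 3 h array. Of 12 glucocorticoid reference genes 8 were at least 2-fold higher at 3 h than after adrenalectomy, where 1.86% of all genes were. Another 2 were at least 1.5-fold lower there, Tsc22d3, a leucine zipper gene, by 1.65-fold and the receptor gene Nr3c1 by 1.58-fold. Fkbp5, a chaperone of the receptor, read 796 after adrenalectomy, 3771 at 3 h and 1418 at 24 h. Of 12 epidermis and hair genes 8 were at least 2-fold higher at 3 h, and 9 of the 12 reached the floor there, against 5 on the adrenalectomized array. The summed signal of this list was 1280 in intact mice, 1420 after adrenalectomy, 11052 at 3 h and 2965 at 24 h. The genes of basal epidermal keratins (Krt5, Krt14, Krt15) were below the floor on all arrays. At 24 h, 7 of the 9 measured epidermis genes were still at least 1.5-fold above the adrenalectomized array, where 5.49% of all genes were. Krt10, a keratin of the upper epidermis, was 3.03-fold above it and Dsp, a junction gene, at least 2.72-fold, while Slc7a8 was 1.02-fold below it. Krt1, another keratin gene of the list, was 3.15-fold above the adrenalectomized array at 3 h and only 1.07-fold at 24 h. Lor was 1.37-fold above that array at 3 h and 1.08-fold below it at 24 h. The share of the 3 h rise that remained at 24 h ran from 3.3% to 21.0% over the 8 epidermis genes and from -13.7% to 20.9% over the 8 reference genes, and was -0.7% for Slc7a8. What skin RNA contributed to the 3 h signal of Slc7a8 was not tested. In RNA of whole muscle, a change in the number of cells of a type and a change in RNA per cell cannot be told apart.

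**Figure D3:**
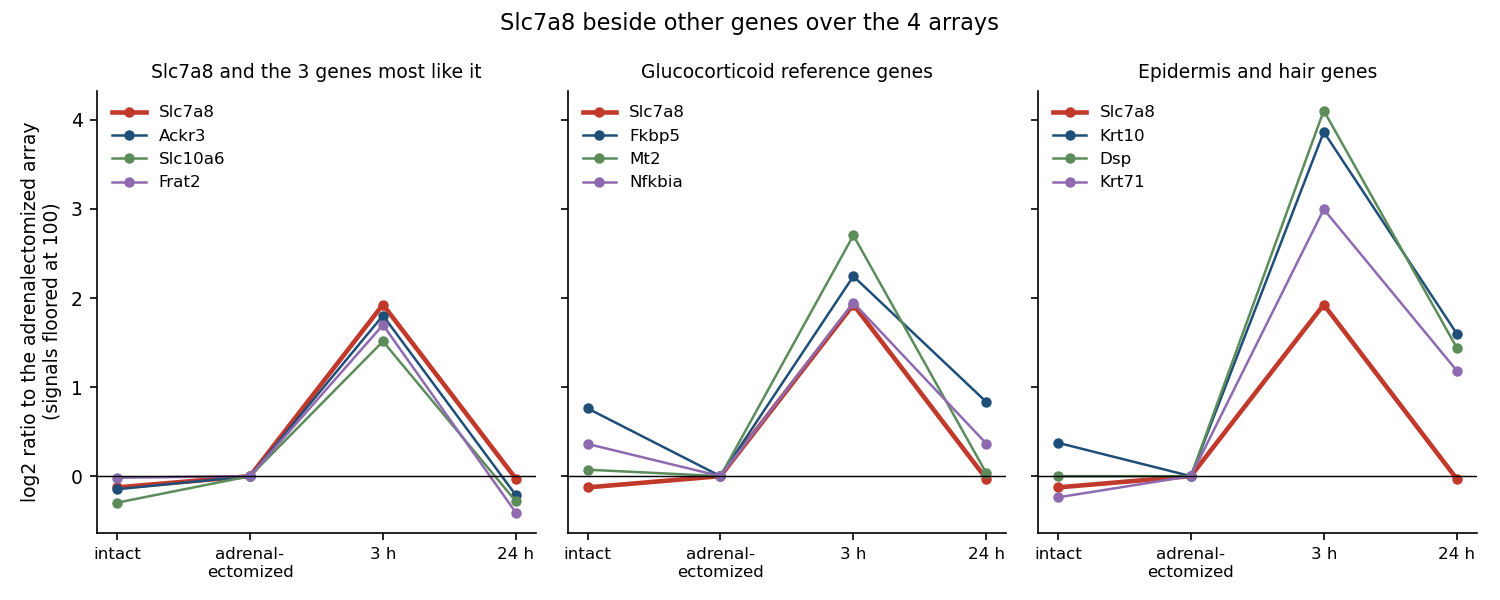
Log2 ratio of each array to the adrenalectomized array (vertical axis, signals floored at 100) over the 4 arrays for Slc7a8 and the 3 genes most like it, for 3 glucocorticoid reference genes and for 3 epidermis and hair genes, with 1 point per array. Slc7a8 stands at 1.93 at 3 h and -0.03 at 24 h, while Krt10, Dsp and Krt71 remain between 1.19 and 1.60 at 24 h. Krt1 of the same list, not drawn, had 1.66 at 3 h and 0.10 at 24 h.

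Glul, the gene of glutamine synthetase, was read by 2 probe sets that disagreed about when its transcript was highest. The set 161826_r_at, whose name marks probes chosen under relaxed rules, read 888 in intact mice, 815 after adrenalectomy, 799 at 3 h and 1073 at 24 h. It was highest at 24 h. The set 94852_at read 281, 311, 477 and 344 in the same order and was highest at 3 h. Against the adrenalectomized array the 3 h log2 ratio was -0.03 by 161826_r_at and 0.62, a 1.53-fold difference, by 94852_at. These differ by 0.65, where the difference between paired probe sets had an SD of 0.40 over 928 genes. At 24 h the ratios were 0.40 and 0.15, which both sets placed above 0 and which differ by less than the SD of 0.45. Between 3 h and 24 h the sets went opposite ways, with log2 ratios of 0.42 and -0.47. The second minus the first was -0.90, where the SD was 0.43. At 3 h against intact the ratios were -0.15 and 0.76, which differ by 0.91, where the SD was 0.39. Both sets put the 24 h array above the intact array, by 0.27 and 0.29. Adrenalectomy gave -0.12 by one set and 0.14 by the other, both smaller than 0.24. Among genes of like brightness the 95th percentile at 3 h was 0.60 for 94852_at. Hepatocytes also make glutamine synthetase. The summed signal of 8 hepatocyte genes was 4128 in intact mice, 2843 after adrenalectomy, 1304 at 3 h and 951 at 24 h, lowest on both cortisol arrays, and its part in the Glul values was not tested.

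The aminotransferase genes gave values for the mitochondrial enzyme alone. Got2 read 1438 in intact mice, 1246 after adrenalectomy, 1105 at 3 h and 1275 at 24 h by the set 161995_r_at. The intact array was the highest and the 3 h array the lowest, 1.30-fold apart. The log2 ratios were -0.21 for adrenalectomized against intact, -0.17 for 3 h and 0.03 for 24 h against adrenalectomized, each smaller than the probe set SD. Under ribosomal scaling the second of these was -0.40, larger in size than the SD of 0.28, and the median of all genes was -0.24. For 3 h against intact the ratio was -0.38, larger in size than the SD of 0.27 for that comparison. Under ribosomal scaling this ratio was -0.61, past 1.5-fold. The other Got2 set, 93355_at, read at most 36.5 and the only Got1 set, 93489_at, at most 9.55. Neither reached the floor, so they give no ratio and no level for these transcripts. Slow fibre genes, which mark oxidative fibres rich in mitochondria, had a summed signal of 81988 in intact mice, 88855 after adrenalectomy, 34890 at 3 h and 33367 at 24 h, and either cortisol array had 8 of these 10 genes at least 2-fold below the adrenalectomized one. Over all genes 1.17% were this much lower at 3 h and 1.06% at 24 h. The part of that difference in the Got2 values was not tested.

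Among the polyamine genes, Odc1 and Srm read lower after adrenalectomy and Sat1 hardly varied with the trimmed mean scaling. Odc1, whose product is the rate-limiting enzyme of polyamine synthesis, read 1102 in intact mice, 848 after adrenalectomy, 863 at 3 h and 972 at 24 h. The intact array was highest, and the adrenalectomized and 3 h arrays lay together at the bottom. Adrenalectomized against intact gave a log2 ratio of -0.38, a 1.30-fold difference, larger than the SD of 0.24 and below the 5th percentile of -0.32 for genes of like brightness. At 3 h the ratio to the adrenalectomized array was 0.03, negative under ribosomal scaling, and at 24 h it was 0.20. The ratio of 3 h to intact was -0.35, larger in size than the SD of 0.27 for that comparison, and that of 24 h to intact -0.18.

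Srm read 286 in intact mice, 245 after adrenalectomy, 349 at 3 h and 322 at 24 h. Both cortisol arrays were above both others. Its log2 ratio was -0.22 after adrenalectomy, smaller than the probe set SD, then 0.51 (1.43-fold) at 3 h and 0.40 at 24 h, the last 2 against the adrenalectomized array and both inside the 5th to 95th percentile of genes of like brightness. The probe set 92540_f_at has a name that marks probes shared within a gene family, so its signal may include related transcripts. Sat1 read 511 in intact mice, 549 after adrenalectomy, 481 at 3 h and 502 at 24 h, and its highest signal was 1.14-fold its lowest, the narrowest range among the 6 measured genes. Its log2 ratios of 0.11, -0.19 and -0.13 in the main comparisons were all smaller than the probe set SD. Under ribosomal scaling the 3 h ratio of Sat1 was -0.42, larger in size than the SD of 0.28, and the median of all genes was -0.24.

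Other genes of the same pathways were counted in 4 lists. Of 33 amino acid transporter genes 21 had a probe set and 15 reached the floor on at least 1 array. At 3 h against adrenalectomized 2 of 14 were at least 1.5-fold higher and 0 lower, with a median log2 ratio of 0.01, where 5.07% of all genes were higher. Slc1a4, which encodes a carrier of alanine, serine and cysteine, read 45.6 in intact mice, 62.0 after adrenalectomy, 248 at 3 h and 93.5 at 24 h, so it was at least 2.48-fold higher at 3 h. Like Slc7a8 it stood high on that array alone. Slc3a1, a heavy chain gene best known from kidney, was 1.52-fold higher at 3 h (215 against 141) and read 131 at 24 h. Under ribosomal scaling the median of the transporter genes at 3 h was -0.22, and 2 of 14 passed 1.5-fold, where 886 of 6098 genes did. Slc3a1 then fell short of 1.5-fold, and Slc7a2, with a ratio of -0.40 under the trimmed mean scaling, passed it as lower. Slc3a2, the partner of LAT2, had signals of 875, 806, 1100 and 849 over the same arrays, a log2 ratio of 0.45 at 3 h. Slc7a5, the light chain LAT1, had 508, 503, 612 and 593, a ratio of 0.28 at 3 h. The sodium-coupled glutamine carrier gene Slc38a2 differed little at 3 h (-0.13) and was 1.54-fold lower at 24 h than after adrenalectomy (1682 against 2582). It was the 1 of 14 transporter genes past 1.5-fold there, where 10.0% of all genes were.

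Of 22 genes of glutamine and glutamate metabolism 13 had a probe set and 11 reached the floor. The median at 3 h was -0.18, and 1 of 11 passed 1.5-fold, where 9.82% of all genes did. Under ribosomal scaling the median was -0.40 and 2 of 11 passed, where 886 of 6098 genes did. With the trimmed mean scaling the gene past 1.5-fold was Cad, which encodes the enzyme that uses glutamine to begin pyrimidine synthesis. Cad fell just short of 1.5-fold under ribosomal scaling, so it was not among the 2. Its signals were 130, 139, 242 and 169, a 1.74-fold difference at 3 h. Glud1, the gene of glutamate dehydrogenase, read 1148, 1469, 1325 and 1501, a log2 ratio of 0.36 after adrenalectomy. Of 20 genes of aspartate, malate and branched-chain amino acid metabolism 17 reached the floor. In the 3 main comparisons 0 of the 17 passed 1.5-fold, where 4.91%, 9.82% and 10.0% of all genes did. Under ribosomal scaling 1 of 17 did at 3 h. The malate dehydrogenase genes of the shuttle, Mdh1 and Mdh2, had ratios of -0.07 and 0.00 at 3 h and 0.28 and 0.02 at 24 h. Mdh2 lay between 14992 and 15199 on the 4 arrays.

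Of 19 further polyamine genes 10 had a probe set. The median of the 8 at the floor was 0.01 after adrenalectomy and that of the 7 at the floor at 3 h was -0.26. Past 1.5-fold were 0 of 7 at 3 h and 0 of 8 at 24 h, where 9.82% and 10.0% of all genes were. Under ribosomal scaling these counts were 2 of 7 and 1 of 8, where 886 of 6098 and 729 of 6318 genes passed. Azin1, whose product shields ornithine decarboxylase from antizyme, read 1521 in intact mice, 1242 after adrenalectomy, 966 at 3 h and 1026 at 24 h. It was lower on each of the other arrays than in intact mice, with a log2 ratio of -0.29 after adrenalectomy and of -0.36 from there to 3 h. Dhps, whose product uses spermidine to modify the translation factor eIF5A, was 1.57-fold higher after adrenalectomy (176 against 112). It was the 1 of 8 past 1.5-fold there, where 4.91% of all genes were. Amd1, Oaz1, Sms and Smox had no probe set annotated to them alone and were not analysed here.

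**Figure D4:**
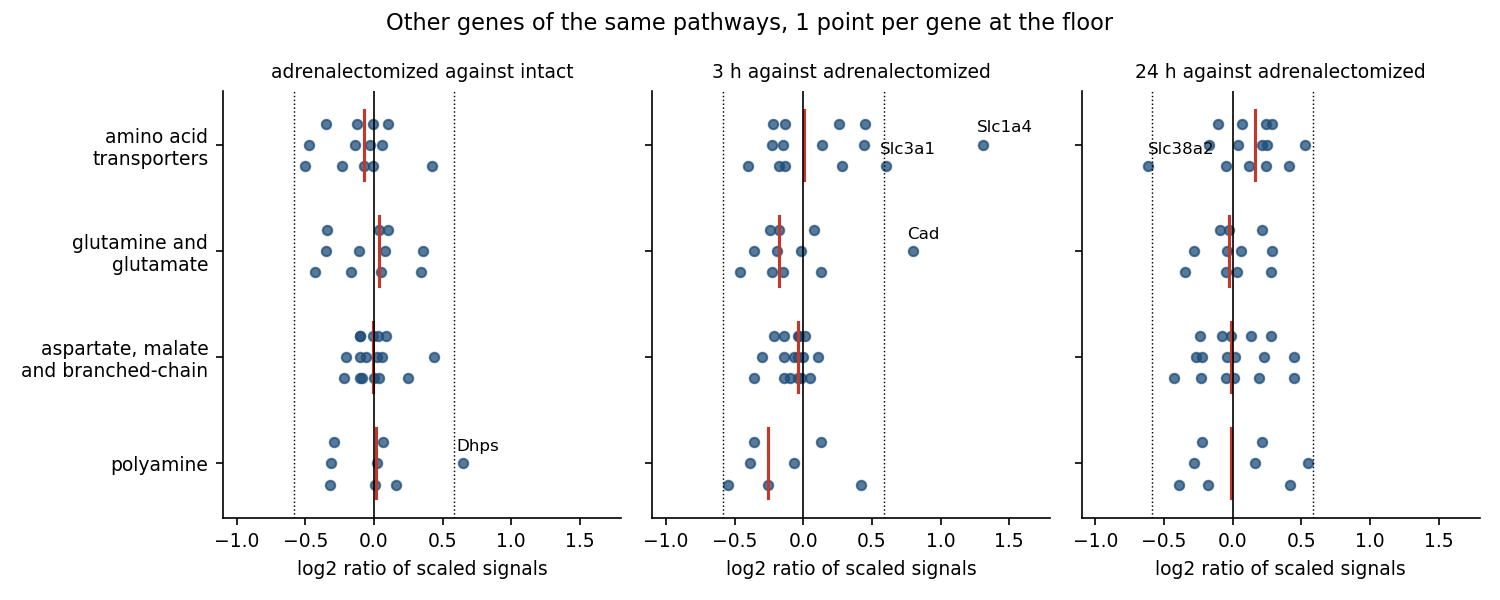
Log2 ratios of scaled signals (horizontal axis) in 3 comparisons for the genes of 4 pathway lists, with 1 point per gene, red bars at the list medians and dotted lines at 1.5-fold. Slc1a4, Slc3a1 and Cad are named at 3 h, Slc38a2 at 24 h and Dhps after adrenalectomy, and every other gene shown lies within 1.5-fold.

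Against intact mice, 1 of the 6 member genes passed 1.5-fold at 3 h, where 9.95% of 6162 genes did, and 0 of 6 at 24 h, where 9.99% of 6219 did. Slc7a8 was the gene past the threshold, 4.15-fold above the intact array at 3 h. At 24 h the 6 log2 ratios to intact ran from -0.18 for Odc1 to 0.27 for Glul, all smaller than the probe set SD of 0.32 for that comparison.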

How the data were processed

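Total RNA from gastrocnemius of 10 pooled mice per group was hybridized to 1 array per group, and no replicates were made, per the labels. The authors deposited linear intensity signals per probe set computed with MAS 5.0, per the labels; each array had been scaled to a trimmed mean near 500, as the values show. The other deposited files hold instrument settings. The table had 12488 probe sets, of which 66 were controls. The 3 h array had 20 missing values and each of the others 0. Symbols came from the platform annotation: 10833 probe sets had 1 symbol, 396 several and 1193 none.

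Each array was rescaled to a trimmed mean of 500 with 2% left out at each end, signals were floored at 100, and log2 ratios were taken with pandas 2.3.3 in Python 3.11.15. A gene was represented by its brightest probe set and was compared where either array read it at or above the floor. The error of a log2 ratio was the SD of the difference between the 2 brightest probe sets of a gene divided by the square root of 2. No test was made, so differences are described by 1.5-fold and 2-fold thresholds. Steps were tested on simulated data, with known fold changes planted only in genes far above the floor. Recovery of ratios near the floor was not tested. The 8 alternatives changed scaling, floor and probe set choice.

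The members and lists were chosen with earlier results of these data known. Named were all members, listed pathway genes past 1.5-fold in a main comparison or fixed as partners, and the 3 genes most like a member that spans 2-fold.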

Additional observations from a re-analysis of the deposited data

How the results depend on the processing

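Slc7a8 stayed past 1.5-fold in the same direction in 3 h against adrenalectomized, 24 h against 3 h and 3 h against intact under all 8 alternatives. Its log2 ratios there were 1.45, -1.45 and 1.45 with a floor of 200, which lies above its signals on the other arrays, and 1.62, -1.64 and 1.72 with 50 added in place of a floor. With ribosomal scaling the 24 h against 3 h ratio was -1.62. The number of members past 1.5-fold became 2, with Glul, at 3 h against adrenalectomized and against intact when probe sets with a suffix were left out, and 4 members were then compared. Over all genes 542 of 5613 and 551 of 5602 passed in that setting. The number of members became 2 with ribosomal scaling for 24 h against 3 h, again with Glul, and for 3 h against intact, with Got2. All genes moved too under that scaling, with 1515 of 6253 and 809 of 6097 past 1.5-fold in these comparisons against 725 of 6229 and 613 of 6162. For 24 h against 3 h it took the aspartate and branched-chain list from 0 to 7 of 17, the glutamine list from 0 to 2 of 11 and the polyamine list from 0 to 3 of 7. The sign of Glul followed the probe set chosen in 4 of the 6 comparisons. Counts over all genes moved with the floor, from 606 past 1.5-fold at 3 h against adrenalectomized to 1024 with a floor of 50 and 330 with a floor of 200, and from 300 to 700 and 112 after adrenalectomy. At 24 h against adrenalectomized they moved from 623 to 1077 and 292. Ribosomal scaling changed the split past 1.5-fold from 359 higher and 366 lower to 1352 and 163 for 24 h against 3 h, from 351 and 262 to 184 and 625 for 3 h against intact, and from 370 and 251 to 594 and 184 for 24 h against intact. Equal medians gave 285 and 334 in the last of these. The causes were not tested. No paired analysis was possible because each group had 1 array.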

Other observations

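Some genes of these pathways differed between the 24 h array and the intact array without passing 1.5-fold in the main comparisons, and were chosen here after their values were seen. Past 1.5-fold at 24 h against intact were 1 of 14 transporter, 1 of 11 glutamine, 1 of 17 aspartate and branched-chain and 0 of 9 polyamine genes. Over all genes 9.99% were, so these counts are no result about the lists. Slc38a5, a glutamine and glycine carrier gene, read 452 in intact mice, 605 after adrenalectomy, 547 at 3 h and 877 at 24 h, so the 24 h signal was 1.94-fold the intact one. Asl, a urea cycle and arginine synthesis gene, read 185, 252, 271 and 343 in the same order, 1.85-fold from intact to 24 h, by a probe set chosen under relaxed rules whose partner stayed below the floor. Gfpt2, which uses glutamine to make hexosamines, read 546, 407, 297 and 335, so it was 1.84-fold lower at 3 h than in intact mice and 1.63-fold lower at 24 h.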
